A study of Solanum lycopersicum with 12 samples.

Results

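Whole tomato fruits that carry the grape sucrose transporter gene *VvSUC27* were compared with fruits that carry its relative *VvSUC12*, at 5 days post-anthesis (DPA). The comparison takes the 3 *VvSUC27*-OE and the 3 *VvSUC12*-OE libraries, 6 of the 12 libraries of the series, and both groups are transgenic. The *VvSUC27*-OE fruits came from line 5 in the T0 generation, and the *VvSUC12*-OE fruits from their own line 5 in the T1 generation. Both are Micro-Tom (*Solanum lycopersicum*) with the grape coding sequence behind the 35S promoter, which is active in most tissues, in the vector pH7WG2D, transformed by *Agrobacterium* and selected on hygromycin. Each genotype is 1 line, and a T0 line goes back to a single primary transformant, so transgene, line and generation cannot be told apart in what follows. The fruits were ground whole, with the developing seeds inside. The methods of the study call the 3 libraries of a line independent biological replicates, but the labels do not say which plants they came from, so the p-values measure only the spread between these libraries, and reads of the grape transgenes themselves were not analysed here. The *VvSUC11*-OE fruits (T1, line 5) and the wild-type (WT) fruits, 3 libraries each, are given only as levels beside the others and enter no test.

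Sucrose transporters of plants move sucrose together with protons across membranes, and the family is known for loading sucrose into the phloem in leaves and for uptake in sink organs such as fruits. At 5 DPA a tomato fruit has just been set: its wall cells divide before they expand, it is green and photosynthetic, and the seeds inside are at an early stage. The question put to these libraries is which genes differ between fruits with one grape transporter and fruits with the other.

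Levels are FPKM as computed by the authors, in which fragments are scaled for transcript length and for library size, so that genes can be compared per length. Tests were made with limma on log2(scaled count + 1), for 18604 of 22827 genes. A log2FC is *VvSUC27*-OE minus *VvSUC12*-OE on that scale, given with its standard error (SE) and its false discovery rate (FDR). A DEG has an FDR under 0.01 and an absolute log2FC above 1. Of the tested genes, 1265 (6.8%) were DEGs, 492 (2.64%) higher and 773 (4.16%) lower in *VvSUC27*-OE fruits. These shares are the background against which the counts of each gene list below are to be read. Without the limit on size, 34.2% passed the FDR, 17.1% higher and 17.2% lower, and the libraries of the lines did not overlap for 52.6% (26.5% higher and 26.1% lower). Among the 1265 DEGs they did not overlap for 1263, so a lack of overlap adds little to the call of a DEG named below. The median log2FC was 0.0025 and the median SE 0.071. The scaled counts summed to 21428668 to 21795363 in *VvSUC27*-OE and 20530052 to 20566216 in *VvSUC12*-OE libraries. When every library was rescaled to the same total, the median log2FC became -0.073, with 433 DEGs higher and 885 lower. Across genes, which are not independent, Pearson's r was 0.991 to 0.992 within lines and 0.952 to 0.954 between them. A single gene compared by an exact permutation test of 3 against 3 libraries cannot go below p = 0.1.

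**Figure D1:**
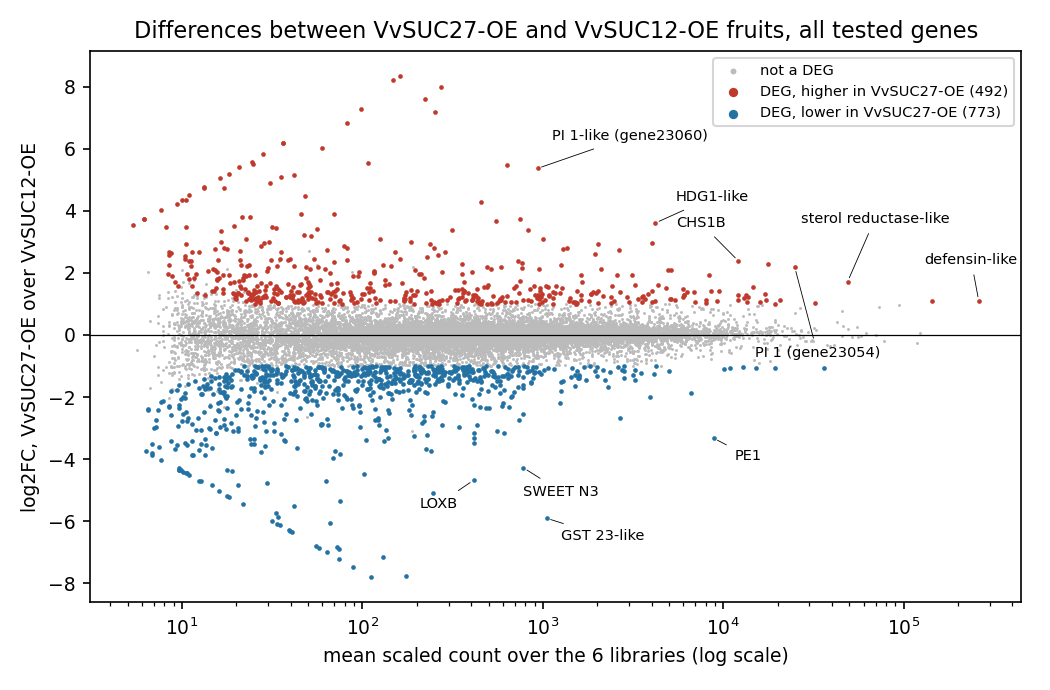
Each point is 1 of the 18604 tested genes, with its mean scaled count over the 6 libraries on a log axis and its log2FC (*VvSUC27*-OE over *VvSUC12*-OE) on the vertical axis for 492 DEGs higher in *VvSUC27*-OE (red), 773 lower ones (blue) and the other genes (grey). The labelled genes are described in the text, and the defensin-like gene at the far right is the most abundant of them.

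Protease inhibitors were far more often higher than lower in *VvSUC27*-OE fruits. They are small proteins that block the digestive enzymes of insects, and many are made in tomato leaves after wounding. Of 44 annotated members, 32 were tested, 16 of them were higher and 1 was lower, with a median log2FC of 0.97. As the samples are bulk tissue, more RNA of a gene in each cell and more cells of a type that makes it cannot be told apart, here and below. Summed over all 44 genes, the inhibitors had 41942 to 47035 FPKM in *VvSUC27*-OE libraries, against 23212 to 23509 FPKM in *VvSUC12*-OE libraries. The sum was 7746 to 8804 FPKM in *VvSUC11*-OE and 26476.5 to 30060 FPKM in WT libraries, so *VvSUC12*-OE fruits lay below the WT. Most of the sum in *VvSUC27*-OE fruits came from genes outside the run described next.

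Many of the 16 stood in a run of neighbouring proteinase inhibitor I genes, gene23054 to gene23066. It held 11 annotated inhibitors, of which 10 were tested and 10 were higher, with log2FC between 2.18 and 6.20. Their summed level was 9830.3 to 11079 FPKM in *VvSUC27*-OE, against 2209 to 2478 FPKM in *VvSUC12*-OE, 868 to 1020.0 FPKM in *VvSUC11*-OE and 1414 to 1741 FPKM in WT libraries. Most of it was gene23054, annotated as wound-induced proteinase inhibitor 1, with 9449, 8925 and 10189.5 FPKM in *VvSUC27*-OE fruits, against 2441, 2196 and 2166 FPKM in *VvSUC12*-OE fruits (log2FC 2.18 ± 0.043 SE, FDR = 4.9e-18). The next in level was gene23060, with 352, 379.5 and 387 FPKM in *VvSUC27*-OE fruits, against 9.53, 9.52 and 10.7 FPKM in *VvSUC12*-OE fruits (log2FC 5.37 ± 0.085 SE, FDR = 2.5e-19). Every *VvSUC27*-OE library was above every *VvSUC12*-OE library for both genes, as in nearly all DEGs that rose. Gene23057 had 226, 242 and 246 FPKM in *VvSUC27*-OE fruits, against 4.9, 6.15 and 6.46 FPKM in *VvSUC12*-OE fruits (log2FC 5.48 ± 0.11 SE, FDR = 7.4e-18). The WT fruits lay between the lines for gene23060 and gene23057, with a mean of 41.2 FPKM and 52 FPKM, but below both lines for gene23054, with 1398 FPKM. A further pair of members were listed at 0 in every *VvSUC12*-OE, *VvSUC11*-OE and WT library. Of these, gene23062 had 13.4, 13.3 and 7.63 FPKM and gene23064 12.4, 16 and 15.2 FPKM in *VvSUC27*-OE libraries, at least 16.3-fold and 24.3-fold higher in scaled counts than a floor of 3 counts per library. The genes of the run are alike in annotation, and reads of near-identical copies could have been divided among them, so the value of a single member is uncertain. Over the gene order, the window of 100 tested genes that holds the run had 23 DEGs, against a median of 6 in 178 such windows.

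Other proteins that tomato leaves make against chewing insects differed too, and they were chosen after their values had been seen. TD2 (gene21547), a threonine deaminase that breaks down threonine in the gut of the insect, had 173, 197 and 189 FPKM in *VvSUC27*-OE fruits, against 24.1, 22.2 and 24.9 FPKM in *VvSUC12*-OE fruits (log2FC 2.98 ± 0.047 SE, FDR = 2.5e-19). Another threonine deaminase (gene25378) had a log2FC of -0.1. LAPA1 (gene28075), the wound-response leucine aminopeptidase, had 23.5, 24.2 and 22.3 FPKM in *VvSUC27*-OE fruits, against 1.35, 0.977 and 1.29 FPKM in *VvSUC12*-OE fruits (log2FC 4.29 ± 0.12 SE, FDR = 6.4e-16), whereas the neutral aminopeptidase LAPA2 (gene28077) had a log2FC of 0.037 (FDR = 0.22). Arginase 2 (gene2009), which degrades arginine, had 49.8, 50.6 and 48.5 FPKM in *VvSUC27*-OE fruits, against 9.44, 10.8 and 10.3 FPKM in *VvSUC12*-OE fruits (log2FC 2.32 ± 0.063 SE, FDR = 4.5e-16). The libraries of the lines did not overlap for TD2, LAPA1 or arginase 2, as for 52.6% of all tested genes. The 3 tested polyphenol oxidases, which turn phenolics into reactive quinones, were split: F (gene20446) and B (gene20454) rose, with log2FC 2.17 and 1.47, and E (gene20445) fell, with log2FC -1.3. E was the most abundant of the 3, with 55.5, 56.5 and 54.8 FPKM in *VvSUC27*-OE fruits, against 145, 139.6 and 135 FPKM in *VvSUC12*-OE fruits. The proteinase inhibitor II TR8 (gene26574) was higher, with 389, 365 and 297 FPKM in *VvSUC27*-OE fruits, against 131, 110.3 and 117 FPKM in *VvSUC12*-OE fruits (log2FC 1.61 ± 0.08 SE, FDR = 3.7e-12). TR8 was higher still in *VvSUC11*-OE fruits, at 543 FPKM.

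**Figure D2:**
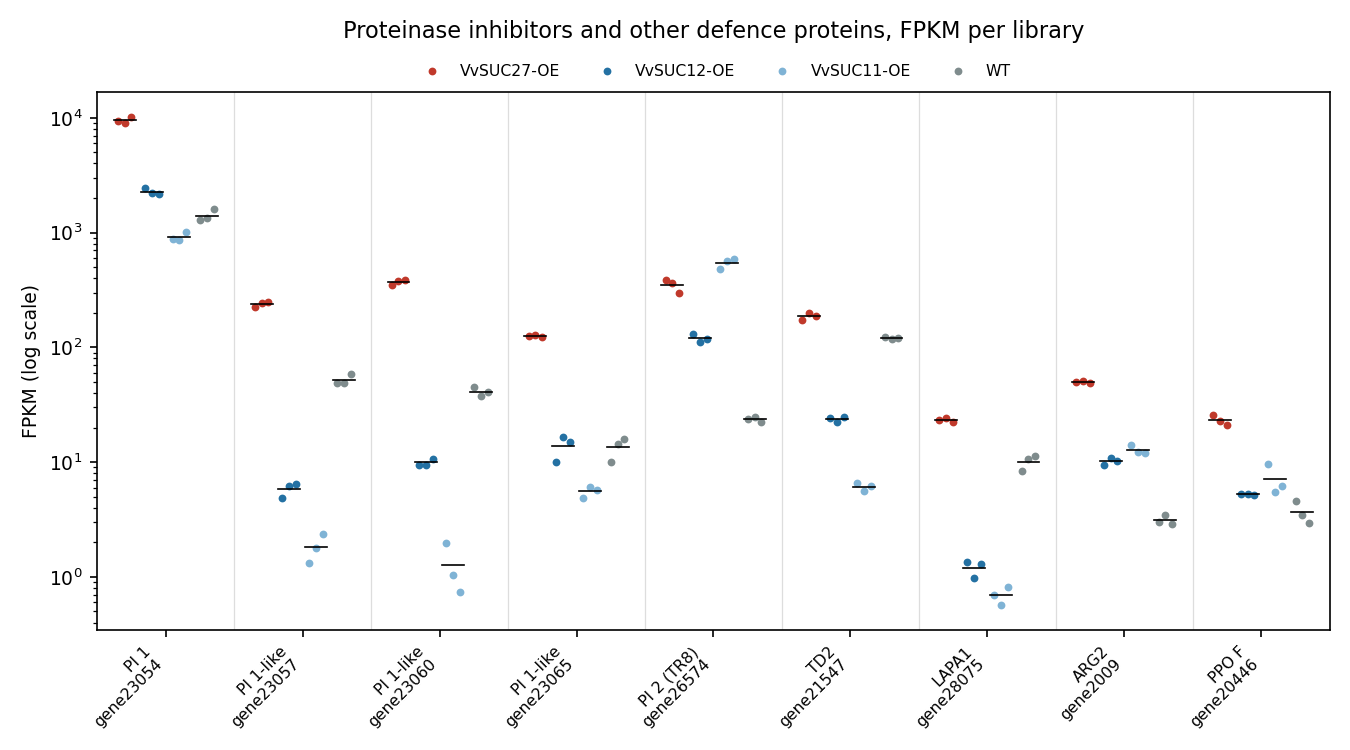
FPKM on a log axis in each library for 9 defence genes, with *VvSUC27*-OE, *VvSUC12*-OE, *VvSUC11*-OE and WT fruits from left to right within a gene; points are libraries and lines the mean of 3. The genes shown were picked from those that rose, so for each the 3 *VvSUC27*-OE points lie above the 3 *VvSUC12*-OE points. The place of *VvSUC11*-OE and WT differs from gene to gene. Defence genes that fell, such as polyphenol oxidase E, are not shown.

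Genes of the wound signal and of jasmonate synthesis went both ways. Systemin (gene13783), the wound peptide of tomato, had 45.3, 42.1 and 52.2 FPKM in *VvSUC27*-OE fruits, against 77.1, 76.7 and 74.5 FPKM in *VvSUC12*-OE fruits, a log2FC of -0.65 (FDR = 7.6e-09), lower and short of the DEG limit. Allene oxide synthase 2 (gene27448) and allene oxide cyclase (gene5858), which act in jasmonate synthesis, passed the FDR with log2FC of 0.59 and 0.55. In the jasmonate and lipoxygenase list, 2 of 34 tested members were higher and 6 lower. Among 14 tested lipoxygenases, enzymes that oxygenate fatty acids, 1 rose and 5 fell. LOXB (gene2597), a 9-lipoxygenase, had 0.485, 0.631 and 0.516 FPKM in *VvSUC27*-OE fruits, against 15, 13.4 and 14.3 FPKM in *VvSUC12*-OE fruits (log2FC -4.68 ± 0.12 SE, FDR = 1.9e-16). Its neighbour gene2596 was the one that rose, with a log2FC of 1.41, and how reads were divided between these neighbours was not tested. LoxF (gene157) had 0.907, 0.828 and 0.929 FPKM in *VvSUC27*-OE fruits, against 6.71, 6.66 and 5.88 FPKM in *VvSUC12*-OE fruits (log2FC -2.84 ± 0.12 SE, FDR = 2.5e-13), and loxC (gene155), which feeds fruit volatiles, a log2FC of -1.31.

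Pathogenesis-related proteins were more often lower than higher. Of 88 tested members of that list, 5 were higher and 16 lower, with a median log2FC of -0.11. A glucan endo-1,3-beta-glucosidase (gene10361), which cuts fungal wall glucan, had 0.105, 0.0532 and 0.105 FPKM in *VvSUC27*-OE fruits, against 7.62, 7.31 and 6.78 FPKM in *VvSUC12*-OE fruits (log2FC -6.05 ± 0.32 SE, FDR = 1e-11). Pathogenesis-related protein 5 (gene12027) had 1.53, 1.28 and 1.58 FPKM in *VvSUC27*-OE fruits, against 19.8, 19 and 19.3 FPKM in *VvSUC12*-OE fruits (log2FC -3.67 ± 0.13 SE, FDR = 2.7e-14). For both genes the *VvSUC27*-OE libraries lay far below the lowest *VvSUC12*-OE library. The neighbours NP24 (gene21032), osmotin-like TPM-1 (gene21033) and OSML15 (gene21034), antifungal proteins of the thaumatin family, fell, with log2FC of -1.48, -1.98 and -1.29. A defensin-like gene (gene16988), at the highest level of the genes named here, rose, with 54136, 53120.5 and 53502 FPKM in *VvSUC27*-OE fruits, against 26701, 28022 and 27152 FPKM in *VvSUC12*-OE fruits (log2FC 1.1 ± 0.029 SE, FDR = 3.4e-16). On the FPKM scale its log2 ratio was 0.97, and it was no longer a DEG there.

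Enzymes of flavonoid synthesis were higher in *VvSUC27*-OE fruits. Flavonoids are phenolic compounds that in tomato fruits gather in the skin. Of 98 tested members of the phenylpropanoid and flavonoid list, 15 were DEGs that rose and 1 fell, and 41 passed the FDR upward and 11 downward. The median log2FC was 0.22, and 0.14 after rescaling to the same total. Chalcone synthase, the first committed step, was represented by CHS1B (gene23253) with 888, 823 and 829 FPKM in *VvSUC27*-OE fruits, against 168, 168 and 169 FPKM in *VvSUC12*-OE fruits (log2FC 2.39 ± 0.031 SE, FDR = 2e-20) and by CHS2 (gene13964) with 961, 934 and 898 FPKM in *VvSUC27*-OE fruits, against 329, 325 and 332 FPKM in *VvSUC12*-OE fruits (log2FC 1.55 ± 0.029 SE, FDR = 2.4e-18). The lowest *VvSUC27*-OE library was well above the highest *VvSUC12*-OE library for both. Later enzymes, chosen after their values were seen like CHS2, rose as well. A probable chalcone isomerase (gene13833) had a log2FC of 2.13, flavanone 3-hydroxylase F3H (gene5689) of 1.61, and a flavonol synthase/flavanone 3-hydroxylase (gene26361) of 1.07, and of these gene26361 was not a DEG after rescaling to the same total. MYB12-like (gene28677), related to a factor that in Arabidopsis turns on flavonol genes, had 5.24, 4.99 and 6.31 FPKM in *VvSUC27*-OE fruits, against 0.218, 0.659 and 0.922 FPKM in *VvSUC12*-OE fruits (log2FC 3.42 ± 0.39 SE, FDR = 6.3e-07). A glucosyltransferase annotated for anthocyanidins (gene4300) had 43.6, 43.8 and 46.6 FPKM in *VvSUC27*-OE fruits, against 3.5, 3.34 and 3.38 FPKM in *VvSUC12*-OE fruits (log2FC 3.74 ± 0.069 SE, FDR = 2e-18). At the entry to the pathway, the 1 member that fell was a phenylalanine ammonia-lyase (gene7329), at 1.53, 0.625 and 1.02 FPKM in *VvSUC27*-OE fruits, against 5.51, 5.04 and 6.73 FPKM in *VvSUC12*-OE fruits (log2FC -2.47 ± 0.24 SE, FDR = 7.3e-08). WT fruits were below both lines for CHS1B, with 102 FPKM, and for CHS2, with 143 FPKM.

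Genes for sterols and for steroidal glycoalkaloids, the bitter defence compounds of green tomato that are made from cholesterol, were among the abundant genes that rose. They were noticed after the values were seen, so their counts are a description. Of 40 tested genes with these words in the annotation, 7 were higher and 0 lower by limma (5 were lower at an unadjusted p under 0.05), and 21 passed the FDR upward and 4 downward. A delta(24)-sterol reductase-like gene (gene4725), an enzyme that saturates the sterol side chain, had 1834, 1855 and 1783 FPKM in *VvSUC27*-OE fruits, against 571, 566 and 569 FPKM in *VvSUC12*-OE fruits (log2FC 1.72 ± 0.022 SE, FDR = 2e-20). DWF5-2 (gene16320), a 7-dehydrocholesterol reductase, had 433, 414 and 438 FPKM in *VvSUC27*-OE fruits, against 166, 157 and 162 FPKM in *VvSUC12*-OE fruits (log2FC 1.42 ± 0.028 SE, FDR = 4.5e-18). Another 7-dehydrocholesterol reductase (gene396) had a log2FC of -0.19. The sterol 4-methyl oxidases gene14333 and gene2024 had log2FC of 1.28 and 1.22, and C5-SD (gene5896) and the sterol C14 reductase HYD2 (gene21581), just short of the limit, of 0.95 and 0.95. By contrast, 24-methylenesterol C-methyltransferase (gene3703), which leads toward the membrane phytosterols, had 466, 468 and 464 FPKM in *VvSUC27*-OE fruits, against 465, 473 and 481 FPKM in *VvSUC12*-OE fruits, and its groups overlapped. Cycloartenol synthase (gene11227), upstream of both branches, had a log2FC of 0.22.

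The same held for 7 neighbouring genes, gene17950 to gene17956, 2 of which are annotated as glycoalkaloid metabolism genes. All 7 passed the FDR upward and 4 were DEGs. Their sum was 11848 to 12407 FPKM in *VvSUC27*-OE, against 5867 to 5962 FPKM in *VvSUC12*-OE libraries, and 3422 to 3463 FPKM in *VvSUC11*-OE and 6459.8 to 6714 FPKM in WT libraries. The largest share came from gad2 (gene17952), of uncharacterized function in the annotation, with 8144, 7932 and 7734 FPKM in *VvSUC27*-OE fruits, against 3794, 3701 and 3719 FPKM in *VvSUC12*-OE fruits (log2FC 1.1 ± 0.022 SE, FDR = 7.4e-18). A cytochrome P450 of the CYP72A219 kind (gene17953) had 693, 705 and 672 FPKM in *VvSUC27*-OE fruits, against 319, 322 and 322 FPKM in *VvSUC12*-OE fruits (log2FC 1.12 ± 0.023 SE, FDR = 1.1e-17). In the sum over the run, the *VvSUC27*-OE libraries stood above all 9 other libraries. The glycosyltransferase glycoalkaloid metabolism 1 (gene17955) had a log2FC of 0.83, GAME17 (gene17954) of 0.22, and a cellulose synthase-like gene (gene17950) of 0.97. Glycoalkaloid metabolism 2 (gene17951) was listed at 0 in the *VvSUC12*-OE libraries and at 0.957, 0.805 and 0.395 FPKM in *VvSUC27*-OE libraries.

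**Figure D3:**
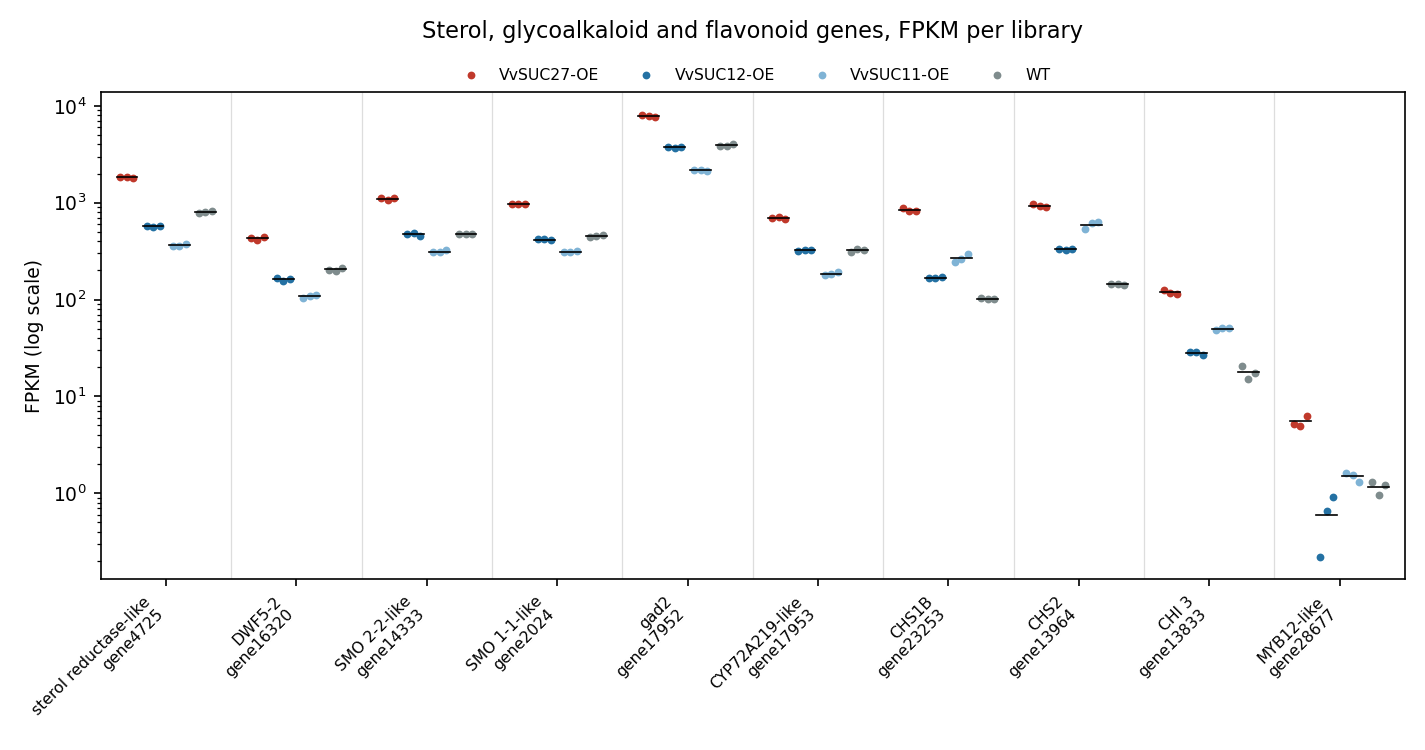
FPKM on a log axis in each library for 6 sterol or glycoalkaloid genes and 4 flavonoid genes, with *VvSUC27*-OE, *VvSUC12*-OE, *VvSUC11*-OE and WT fruits from left to right within a gene; points are libraries and lines the mean of 3. The *VvSUC27*-OE points are the highest for each gene shown.

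Photosynthesis genes were higher as well. Of 98 tested members, 15 were higher and 2 lower, and 63 passed the FDR upward and 10 downward. The median log2FC was 0.21, and 0.14 after rescaling to the same total. All 27 chlorophyll a-b binding proteins, which hold the pigments of the light-harvesting antennae, were tested, and 24 passed the FDR upward, 8 of them as DEGs, and 0 passed it downward (1 at an unadjusted p under 0.05). They summed to 10859.7 to 11307 FPKM in *VvSUC27*-OE, against 7616 to 8044 FPKM in *VvSUC12*-OE libraries, and 9157 to 9638 FPKM in *VvSUC11*-OE and 10575 to 11404 FPKM in WT libraries. The *VvSUC12*-OE libraries were thus the lowest of the 12. A run of neighbours, gene4858 to gene4863, held 5 of the DEGs, and such neighbours may share reads, which was not tested. Rubisco activase 1 (gene21781), which keeps the carbon-fixing enzyme active, had 66.6, 65.7 and 74.2 FPKM in *VvSUC27*-OE fruits, against 14.8, 15.2 and 14.5 FPKM in *VvSUC12*-OE fruits (log2FC 2.24 ± 0.05 SE, FDR = 2.4e-17). An early light-induced protein (gene22970), a photoprotective relative of the antenna proteins, had 98.7, 95.6 and 102 FPKM in *VvSUC27*-OE fruits, against 19.9, 24 and 24.6 FPKM in *VvSUC12*-OE fruits (log2FC 2.16 ± 0.069 SE, FDR = 5.6e-15), and a ferredoxin (gene24842), an electron carrier, had 488, 525 and 507 FPKM in *VvSUC27*-OE fruits, against 123, 122 and 138 FPKM in *VvSUC12*-OE fruits (log2FC 2.13 ± 0.05 SE, FDR = 5.7e-17). The small chain of Rubisco rbcS1 (gene4315) was not among them, with a log2FC of -0.06 (FDR = 0.098). A photosystem II polypeptide (gene28377) went the other way, with 0.112, 0 and 0.115 FPKM in *VvSUC27*-OE fruits, against 8.32, 6.18 and 5.54 FPKM in *VvSUC12*-OE fruits (log2FC -5.98 ± 0.45 SE, FDR = 2.3e-09). The markers of green tissue fixed for this comparison, 30 genes of which 27 are the antenna proteins, summed to 12235 to 12709 FPKM in *VvSUC27*-OE and 8975 to 9466 FPKM in *VvSUC12*-OE libraries, and their part in the photosynthesis difference was not tested.

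Of 74 tested genes of the clock, light and flowering time, 6 were higher and 2 lower, and the hour of harvest is not given in the sources used here. LHY (gene23480), in Arabidopsis a morning gene of the circadian clock, had 37.9, 37.2 and 43.2 FPKM in *VvSUC27*-OE fruits, against 5.71, 6.29 and 5.57 FPKM in *VvSUC12*-OE fruits (log2FC 2.79 ± 0.06 SE, FDR = 1.5e-17). The related REVEILLE 8-like (gene25439) had 30.8, 28.3 and 28.8 FPKM in *VvSUC27*-OE fruits, against 5.81, 5.7 and 7.36 FPKM in *VvSUC12*-OE fruits (log2FC 2.28 ± 0.11 SE, FDR = 5.2e-12). Genes that in Arabidopsis peak in the afternoon or evening, chosen after their values were seen, went both ways. APRR5 (gene23476) rose, with a log2FC of 1.22, whereas GIGANTEA (gene11322) and EARLY FLOWERING 4 (gene15110) passed the FDR downward, with -0.59 and -0.48. PRR37 (gene10724), a pseudo-response regulator like APRR5, had -0.43 and passed it downward too. For LHY the *VvSUC11*-OE fruits stood with *VvSUC27*-OE, at 41 FPKM, and the WT fruits with *VvSUC12*-OE, at 5.16 FPKM. What part the hour had in the photosynthesis and flavonoid values was not tested.

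**Figure D4:**
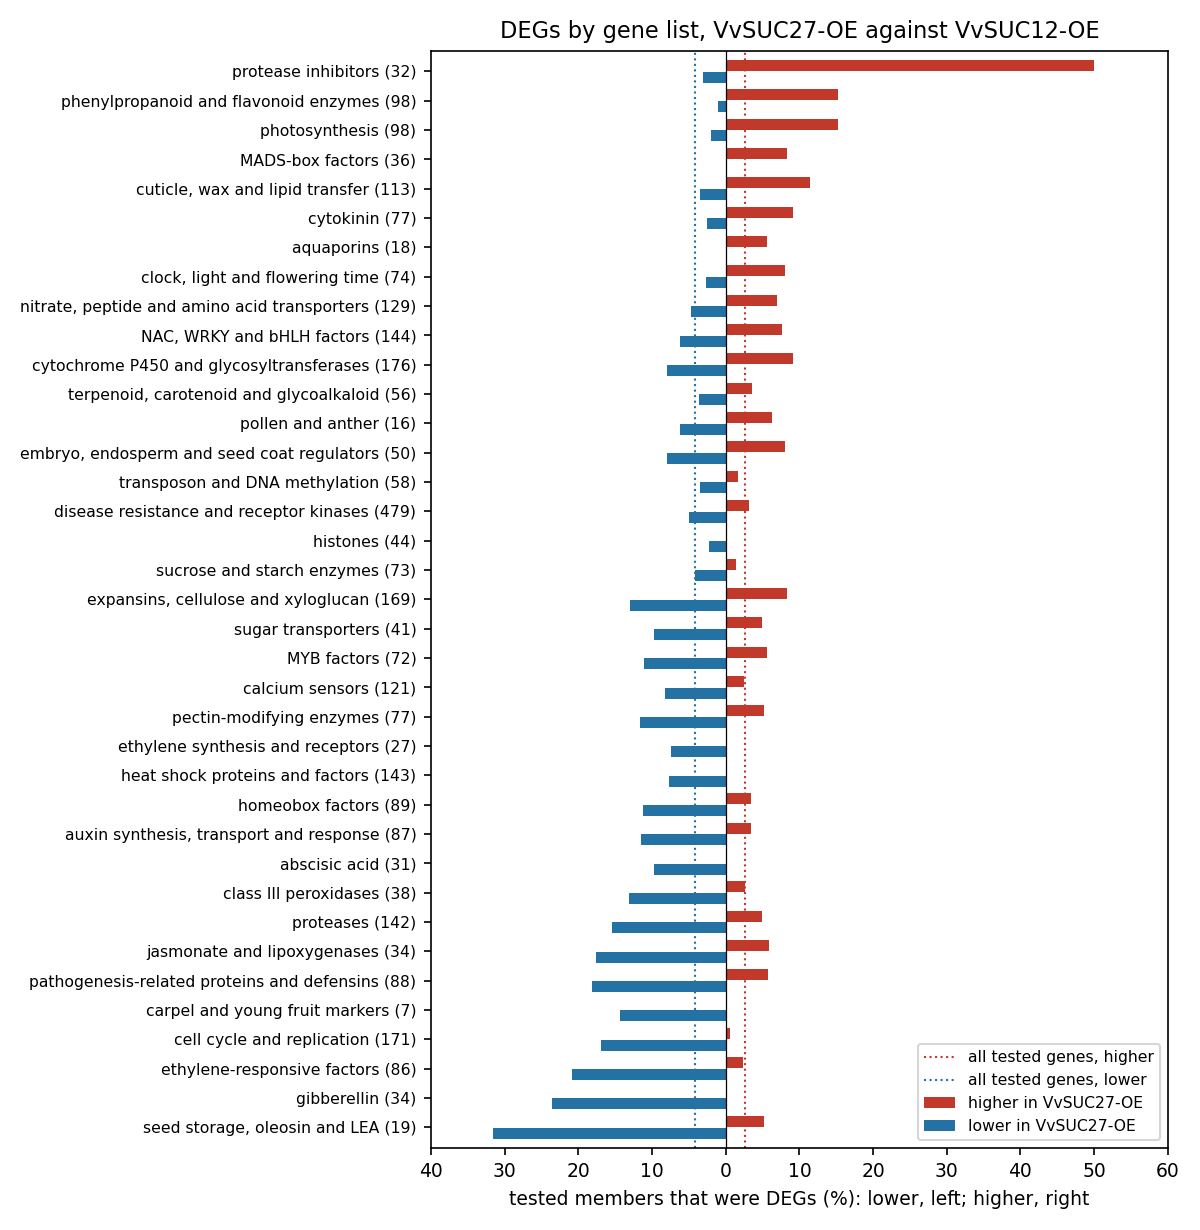
Share of the tested members of each of 37 gene lists that were DEGs, with higher ones to the right in red and lower ones to the left in blue; the number tested is in brackets and dotted lines give the share over all tested genes, 2.64% and 4.16%. Protease inhibitors stand at the top and the seed storage, gibberellin, ethylene-responsive and cell cycle lists at the bottom.

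On the other side, genes of cell division were lower in *VvSUC27*-OE fruits. Of 171 tested members of the cell cycle and replication list, 1 was higher and 29 lower, and 12 passed the FDR upward and 65 downward. The median log2FC was -0.13, and -0.21 after rescaling to the same total. Of 52 tested kinesins, motor proteins of the spindle and the cell plate among other uses, 14 were lower and 0 higher (6 higher at an unadjusted p under 0.05), and of 10 tested G2/mitotic-specific cyclins 5 were lower and 0 higher (0 at an unadjusted p under 0.05). KNOLLE (gene15213), a syntaxin of the forming cell plate, had 10.1, 11.6 and 12.3 FPKM in *VvSUC27*-OE fruits, against 27, 29.1 and 28.8 FPKM in *VvSUC12*-OE fruits (log2FC -1.3 ± 0.074 SE, FDR = 3.6e-11). CDKB2 (gene12151), a kinase of the entry into mitosis, had 26.4, 27.2 and 27.7 FPKM in *VvSUC27*-OE fruits, against 60.01, 63 and 61.1 FPKM in *VvSUC12*-OE fruits (log2FC -1.18 ± 0.047 SE, FDR = 1.6e-13). Aurora-2 (gene20135), a spindle kinase, had 5.36, 6.24 and 6.8 FPKM in *VvSUC27*-OE fruits, against 14.3, 13.7 and 13.8 FPKM in *VvSUC12*-OE fruits (log2FC -1.18 ± 0.098 SE, FDR = 8.7e-09). These 3 were chosen after their values were seen, and their libraries do not overlap between the lines, as in nearly all DEGs. Of the genes the rule names, a biorientation of chromosomes 1-like gene (gene12591) had 5.16, 5.23 and 4.7 FPKM in *VvSUC27*-OE fruits, against 24.7, 25.7 and 27.5 FPKM in *VvSUC12*-OE fruits (log2FC -2.33 ± 0.068 SE, FDR = 1.2e-15), and a putative cell division cycle ATPase (gene6026) a log2FC of -1.91. The member that rose was a cyclin B2-4-like gene assembled by the authors (newGene_1080), with a log2FC of 1.39.

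MCM proteins, PCNA and D-type cyclins did not share these values, whereas histones were mostly lower by small amounts. The 10 tested MCM proteins and PCNA, which act at the replication fork, had log2FC between -0.32 and 0.24, with 0 DEGs by limma (2 higher and 1 lower at an unadjusted p under 0.05). The 9 tested D-type cyclins, which act at the start of the cycle, had 0 DEGs (1 higher and 1 lower at an unadjusted p under 0.05) and a median of 0.022. Of 44 tested histones, 1 fell as a DEG, with a median of -0.23. Without the limit on size, 29 passed the FDR downward (65.9%, against 17.2% over all tested genes) and 2 upward. KNOLLE averaged 7.07 FPKM in *VvSUC11*-OE and 15.8 FPKM in WT fruits, and CDKB2 15 FPKM in *VvSUC11*-OE and 35.3 FPKM in WT fruits, so *VvSUC12*-OE fruits had the highest mean of the 4 groups for both. With limma's treat, a stricter test for a change above the limit, 6 members of the list were lower. The dividing-cell markers fixed for this comparison, B-type cyclins and KNOLLE, summed to 314 to 341 FPKM in *VvSUC27*-OE and 359 to 381 FPKM in *VvSUC12*-OE libraries. The sum was 323 to 326 FPKM in *VvSUC11*-OE and 284 to 293 FPKM in WT libraries, so *VvSUC27*-OE fruits lay above the WT. Of these 6 genes, 1 was a DEG that rose and 1 a DEG that fell, and 1 passed the FDR upward and 3 downward.

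Gibberellin genes included only lower DEGs. Gibberellins are hormones of fruit set and growth, made in their last steps by gibberellin 20-oxidases and inactivated by 2-oxidases. Of 34 tested members, 0 were higher by limma (6 at an unadjusted p under 0.05) and 8 lower, with a median log2FC of -0.53, and 4 passed the FDR upward and 18 downward. GA20OX1 (gene6886) had 1.72, 2.15 and 3.98 FPKM in *VvSUC27*-OE fruits, against 13.4, 17.2 and 14.9 FPKM in *VvSUC12*-OE fruits (log2FC -2.59 ± 0.21 SE, FDR = 5.7e-09). The libraries of the lines do not overlap, although the third *VvSUC27*-OE library lies above the other two. The 20-oxidase 20ox-2 (gene14792) and the 2-oxidase GA2ox4 (gene18615) fell too, with log2FC of -2.58 and -1.44, so that genes of synthesis and of inactivation were both among those lower. Snakin-2 (gene3631), a small cell wall peptide of a family that responds to gibberellin, was at the highest level of the 8, with 309.9, 327 and 313 FPKM in *VvSUC27*-OE fruits, against 789, 765 and 805 FPKM in *VvSUC12*-OE fruits (log2FC -1.21 ± 0.041 SE, FDR = 1.5e-14). When genes averaging under 50 scaled counts were left out, 2 members were lower, since the other 6 lie under that mean.

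Ethylene-responsive factors, transcription factors that act in ethylene, stress and defence responses, were more often lower than higher. Of 86 tested, 2 were higher and 18 lower, with a median log2FC of -0.24. Of the 18, gene2211 is annotated as a late embryogenesis-like protein that responds to ethylene and is no such factor. PTI5 (gene5082), a defence regulator, had 0.981, 1.9 and 1.5 FPKM in *VvSUC27*-OE fruits, against 10.6, 11.1 and 11.4 FPKM in *VvSUC12*-OE fruits (log2FC -2.87 ± 0.25 SE, FDR = 1.8e-08), and ethylene-responsive transcription factor 5 (gene13815) had 1.84, 1.94 and 1.46 FPKM in *VvSUC27*-OE fruits, against 11, 13.6 and 11.7 FPKM in *VvSUC12*-OE fruits (log2FC -2.78 ± 0.13 SE, FDR = 1.9e-12). ERF-B4 (gene8092), at a higher level, had 27.6, 27.3 and 26.9 FPKM in *VvSUC27*-OE fruits, against 59, 64.2 and 62.7 FPKM in *VvSUC12*-OE fruits (log2FC -1.1 ± 0.055 SE, FDR = 5.1e-12). Of 27 tested genes for ethylene synthesis and reception 2 were lower and 0 higher (6 at an unadjusted p under 0.05), among them ACS1A (gene21123), which makes the ethylene precursor, with a log2FC of -1.04. Of 143 tested heat shock proteins and factors 11 were lower and 0 higher (35 at an unadjusted p under 0.05). Lower DEGs made up 7.41% of the ethylene synthesis list and 7.69% of the heat shock list, against 4.16% over all tested genes. Without the limit on size, 34.3% of the heat shock list passed the FDR downward and 21% upward. For the ethylene synthesis list these shares were 22.2% and 18.5%, and over all tested genes 17.2% and 17.1%. HSP20-1 (gene16550), a small chaperone, had 13.7, 19.5 and 20.6 FPKM in *VvSUC27*-OE fruits, against 91.3, 94.2 and 98.8 FPKM in *VvSUC12*-OE fruits (log2FC -2.3 ± 0.1 SE, FDR = 9.8e-13), with 0.242 FPKM in WT fruits, below both lines. BAG6 (gene2230), a co-chaperone, had 6.71, 7.06 and 7.31 FPKM in *VvSUC27*-OE fruits, against 43.6, 45.6 and 46.8 FPKM in *VvSUC12*-OE fruits (log2FC -2.68 ± 0.042 SE, FDR = 2.5e-19).

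Among auxin genes, DEGs were more often lower than higher, while the median was small. Of 87 tested, 3 were higher (3.45%) and 10 lower (11.5%), against 2.64% and 4.16% over all tested genes. Without the limit on size, 17 passed the FDR upward and 23 downward. The median was 0.045, or -0.031 after rescaling to the same total, so its sign depends on the scaling. An auxin-repressed protein (gene5123) had 146, 142 and 147 FPKM in *VvSUC27*-OE fruits, against 627, 602 and 603 FPKM in *VvSUC12*-OE fruits (log2FC -1.998 ± 0.033 SE, FDR = 5.9e-19). ILR1-like 6 (gene25085), a hydrolase that frees auxin from its amino acid conjugates, had 14.7, 15.5 and 14.2 FPKM in *VvSUC27*-OE fruits, against 2.3, 2.36 and 2.34 FPKM in *VvSUC12*-OE fruits (log2FC 2.67 ± 0.095 SE, FDR = 3e-14). The auxin efflux gene *SlPIN6* (gene15300) had 9.62, 9.68 and 8.49 FPKM in *VvSUC27*-OE fruits, against 12.4, 15.5 and 15 FPKM in *VvSUC12*-OE fruits, a log2FC of -0.61. *SlPIN5* (gene1391) was too low to be tested, with 0.129, 0.13 and 0.0642 FPKM in *VvSUC27*-OE fruits, against 0.499, 0.684 and 0.75 FPKM in *VvSUC12*-OE fruits, while the WT fruits had 5.97 FPKM.

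Genes of the cell wall differed in both directions. Of 169 tested expansins and cellulose or xyloglucan genes, 14 were higher and 22 lower. Xyloglucan endotransglucosylase/hydrolases (XTH), which cut and rejoin the tethers between cellulose fibrils, were mostly lower among their DEGs, 10 of 21 tested being lower and 1 higher. A run of 4 neighbours, gene8049 to gene8054, summed to 17.6 to 21.4 FPKM in *VvSUC27*-OE, against 135 to 159 FPKM in *VvSUC12*-OE libraries, and the 4 log2FC lay between -3.17 and -2.60. Among them gene8053 had 4.63, 4.9 and 6.35 FPKM in *VvSUC27*-OE fruits, against 46.4, 46.1 and 52.5 FPKM in *VvSUC12*-OE fruits (log2FC -3.17 ± 0.11 SE, FDR = 1.5e-14). On the other side, cellulose synthase-like E6 (gene28341) had 36, 35.9 and 34.2 FPKM in *VvSUC27*-OE fruits, against 3.14, 2.96 and 4.06 FPKM in *VvSUC12*-OE fruits (log2FC 3.39 ± 0.08 SE, FDR = 6.1e-17), and an expansin (gene14978) a log2FC of 1.44. The pectinesterase PE1 (gene18846), which removes methyl groups from pectin, had 41.8, 43 and 40.3 FPKM in *VvSUC27*-OE fruits, against 405, 429 and 435 FPKM in *VvSUC12*-OE fruits (log2FC -3.33 ± 0.032 SE, FDR = 4.6e-22). PE1 was at 1055 FPKM in *VvSUC11*-OE and 0.634 FPKM in WT fruits, so both lines were above the WT.

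Surface lipid genes were higher more often than lower. Of 113 tested members of the cuticle, wax and lipid transfer list, 13 were higher and 4 lower, with 46 passing the FDR upward and 17 downward. A GDSL esterase/lipase (gene25806), from a family with cutin-linking members, had 1105, 1074 and 1093 FPKM in *VvSUC27*-OE fruits, against 438, 446 and 445 FPKM in *VvSUC12*-OE fruits (log2FC 1.33 ± 0.022 SE, FDR = 4.8e-19). A GPI-anchored lipid transfer protein (gene27565) had 94.7, 90.1 and 97.6 FPKM in *VvSUC27*-OE fruits, against 33.5, 33.3 and 36.2 FPKM in *VvSUC12*-OE fruits (log2FC 1.48 ± 0.052 SE, FDR = 2.5e-14). The abundant lipid transfer genes gene24836, gene24837 and gene24840 rose with log2FC of 1.06, 1.14 and 1.06, and as near neighbours they may share reads. HDG1-like (gene14822), of the homeodomain class IV known in Arabidopsis from the epidermis, had 167, 167 and 164 FPKM in *VvSUC27*-OE fruits, against 14.1, 12.8 and 13.8 FPKM in *VvSUC12*-OE fruits (log2FC 3.61 ± 0.038 SE, FDR = 9.2e-22). It averaged 0.0552 FPKM in *VvSUC11*-OE and 0.0388 FPKM in WT fruits, both under the median level of 3 counts. Of 89 tested homeobox factors, 3 were higher and 10 lower.

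Among the sugar transport genes of tomato itself, members of the SWEET family, which lets sugars flow down their gradient, differed in both directions. Of 24 genes annotated as bidirectional sugar transporters, a group drawn up after values were seen, 13 were tested, 1 was higher and 3 were lower, with a median log2FC of -0.14. A bidirectional sugar transporter N3 (gene8361) had 2.88, 2.44 and 5.24 FPKM in *VvSUC27*-OE fruits, against 68.4, 61.3 and 65.3 FPKM in *VvSUC12*-OE fruits (log2FC -4.28 ± 0.17 SE, FDR = 2.1e-13), and a second one (gene13286) had 5.24, 5.33 and 5.62 FPKM in *VvSUC27*-OE fruits, against 15.4, 18.4 and 16.3 FPKM in *VvSUC12*-OE fruits (log2FC -1.6 ± 0.11 SE, FDR = 4.8e-10). A SWEET17-like gene (gene2659) was higher from a low level, with 2.75, 2.14 and 2.29 FPKM in *VvSUC27*-OE fruits, against 0.0543, 0 and 0.0551 FPKM in *VvSUC12*-OE fruits. The sucrose transporters *SlSUT1* (gene26425), *SlSUT2* (gene12376) and *SlSUT4* (gene11593) had log2FC of -0.19, 0.43 and 0.074, and 0 of the 3 were DEGs. *SlSUT1*, the phloem loader, had 46.4, 46.7 and 50.3 FPKM in *VvSUC27*-OE fruits, against 54.1, 56.4 and 57.8 FPKM in *VvSUC12*-OE fruits. In the whole list of 41 tested sugar transporters, 2 were higher (4.88%) and 4 lower (9.76%), with a median of -0.12. Of 73 tested sucrose and starch enzymes 1 was higher (1.37%) and 3 lower (4.11%), no more than the 2.64% and 4.16% over all tested genes. The median of the enzymes was 0.019, and -0.056 after rescaling to the same total. HXK3 (gene27922), a hexokinase, fell, with a log2FC of -1.03. Aquaporins had 1 DEG among 18 tested (5.56%, against 6.8% over all tested genes), PIP2-4 (gene14201), with a log2FC of 1.11.

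**Figure D5:**
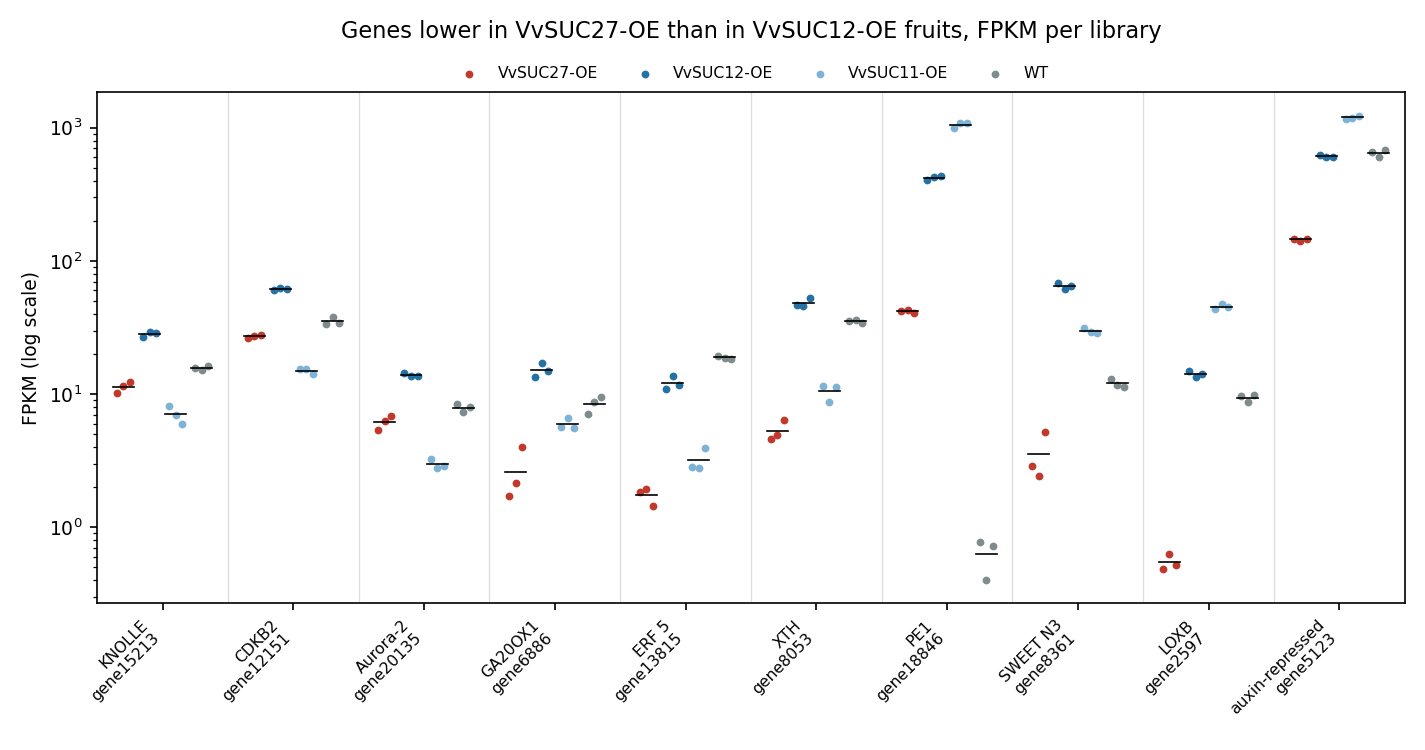
FPKM on a log axis in each library for 10 genes that fell, with *VvSUC27*-OE, *VvSUC12*-OE, *VvSUC11*-OE and WT fruits from left to right within a gene; points are libraries and lines the mean of 3. For each gene the 3 *VvSUC27*-OE points lie below the 3 *VvSUC12*-OE points.

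Few genes of seed storage and late embryogenesis proteins were expressed at this stage, and those that differed were mostly lower. In that list, 19 of 61 members were tested, 1 higher and 6 lower, with a median of -0.38. Regulators of embryo, endosperm and seed coat were split. Of 50 tested, 4 were higher (8%) and 4 lower (8%), with a median of -0.017, and 9 passed the FDR upward and 7 downward. A Lea5-like protein (gene14568), of a family made in dry seeds and in stress, had 32.1, 35.3 and 32.5 FPKM in *VvSUC27*-OE fruits, against 120.1, 124 and 141 FPKM in *VvSUC12*-OE fruits (log2FC -1.83 ± 0.064 SE, FDR = 2.5e-14). Of 17 markers of mature seed, 13 were under 0.5 FPKM in every *VvSUC27*-OE library and 13 in every *VvSUC12*-OE library. All 17 summed to 10.8 to 14.8 FPKM in *VvSUC27*-OE and 8.21 to 12.7 FPKM in *VvSUC12*-OE libraries. The seed coat and ovule markers, of the AGL11 kind, summed to 28.8 to 36.4 FPKM in *VvSUC27*-OE, 50.4 to 51.8 FPKM in *VvSUC12*-OE, 25.8 to 31.8 FPKM in *VvSUC11*-OE and 129 to 137 FPKM in WT libraries. Of these, AGL11 (gene15601), a MADS-box factor of ovule identity, had 15.4, 19.3 and 19.9 FPKM in *VvSUC27*-OE fruits, against 35.1, 35.9 and 34.7 FPKM in *VvSUC12*-OE fruits, a log2FC of -0.92 (FDR = 9.5e-09). The carpel markers summed to 332 to 336 FPKM in *VvSUC27*-OE and 346 to 358 FPKM in *VvSUC12*-OE libraries, and 1 of the 6 genes was a DEG, lower in *VvSUC27*-OE fruits.

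Proteases, enzymes that cut proteins, were more often lower. Of 142 tested, 7 were higher and 22 lower. The aspartic proteinase CDR1-like (gene20476) had 0.347, 0.267 and 0.524 FPKM in *VvSUC27*-OE fruits, against 8.68, 7.18 and 10.9 FPKM in *VvSUC12*-OE fruits (log2FC -4.48 ± 0.25 SE, FDR = 2e-11), with 182 FPKM in WT fruits. A subtilisin-like protease (gene19356) had 1.92, 1.43 and 1.62 FPKM in *VvSUC27*-OE fruits, against 18.1, 13.6 and 19.2 FPKM in *VvSUC12*-OE fruits (log2FC -3.33 ± 0.13 SE, FDR = 6.6e-14), with 316 FPKM in WT fruits. VPE2 (gene20116), a vacuolar processing enzyme of a family known for protein processing and cell death in seeds, had 2.29, 2.28 and 2.73 FPKM in *VvSUC27*-OE fruits, against 17.9, 17.6 and 20.01 FPKM in *VvSUC12*-OE fruits (log2FC -2.91 ± 0.11 SE, FDR = 7.4e-14), with 219 FPKM in WT fruits. For these 3, of which VPE2 was chosen after its values were seen, the WT mean stood above both lines, and *VvSUC11*-OE fruits were lowest, at or under 0.0424 FPKM. The seed coat markers, given above, were likewise highest in the WT, and their part in these values was not tested.

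Petal and stamen markers were higher in *VvSUC27*-OE fruits, with 143 to 146 FPKM against 115 to 122 FPKM in *VvSUC12*-OE, and 2 of the 3 genes were DEGs. DEFICIENS (gene11971), which specifies these organs, had 52.7, 49.4 and 55.2 FPKM in *VvSUC27*-OE fruits, against 22.6, 24.8 and 26.8 FPKM in *VvSUC12*-OE fruits (log2FC 1.11 ± 0.062 SE, FDR = 2.3e-11). Pollen markers summed to 2009 to 2036 FPKM in *VvSUC27*-OE and 2161 to 2234 FPKM in *VvSUC12*-OE libraries. Gene by gene they did not follow the sum, as of 11 tested 3 passed the FDR upward, 1 of them as a DEG, and 1 downward. The 4 ripening markers summed to 90.6 to 93.2 FPKM in *VvSUC27*-OE and 93.4 to 99 FPKM in *VvSUC12*-OE libraries, and of the 3 tested 1 passed the FDR upward and 2 downward, 1 of these as a DEG. The member not tested, E8 (gene8193), was at 0.0407, 0.293 and 0.0407 FPKM in *VvSUC27*-OE and 0.0789, 0.0395 and 0 FPKM in *VvSUC12*-OE libraries. Its scaled counts were 0, 7 and 0 in *VvSUC27*-OE and 1, 0 and 0 in *VvSUC12*-OE libraries.

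Some genes were found in one line and not in the other. At most 3 scaled counts in every *VvSUC12*-OE library and at least 20 in every *VvSUC27*-OE library were found for 21 genes, 6 of them newly assembled by the authors. The reverse was found for 30 genes, 12 of them newly assembled. Of the 21, 2 had a mean of at least 0.5 FPKM in WT fruits, and of the 30, 16 did. A seed protein-like gene (gene8432) was one of the 21, with 42.6, 38.5 and 36.4 FPKM in *VvSUC27*-OE fruits, against 0.169, 0.171 and 0.262 FPKM in *VvSUC12*-OE fruits (log2FC 7.6 ± 0.25 SE, FDR = 9.8e-15). A probable disease resistance protein (gene28773), of a family of immune receptors, had some counts in *VvSUC12*-OE fruits, with 10.3, 10.03 and 10.6 FPKM in *VvSUC27*-OE fruits, against 0.113, 0 and 0.0453 FPKM in *VvSUC12*-OE fruits (log2FC 7.99 ± 0.39 SE, FDR = 3e-12). In the other direction, a CLASSY 3-like gene (newGene_2083), of a family that in Arabidopsis guides DNA methylation, was listed at 0 in *VvSUC27*-OE and at 4.66, 4.63 and 4.62 FPKM in *VvSUC12*-OE libraries. Another CLASSY 3-like model (newGene_249) had the opposite pattern, with 4.99, 4.4 and 6.14 FPKM in *VvSUC27*-OE fruits, against 0.0746, 0 and 0.0363 FPKM in *VvSUC12*-OE fruits. An F-box/FBD/LRR-repeat pair behaved alike, gene12672 with 13.3, 12.9 and 12.5 FPKM in *VvSUC27*-OE fruits, against 0.042, 0.0844 and 0.121 FPKM in *VvSUC12*-OE fruits and newGene_1972 listed at 0 in *VvSUC27*-OE and at 2.75, 3.03 and 3.46 FPKM in *VvSUC12*-OE libraries. Such pairs carry the same annotation, and whether reads of one locus were assigned to different models in the lines was not tested. The glutathione transferase GST 23-like (gene1621), of a family that detoxifies by adding glutathione, also fell, with 2.39, 2.05 and 1.55 FPKM in *VvSUC27*-OE fruits, against 113, 127 and 133 FPKM in *VvSUC12*-OE fruits (log2FC -5.9 ± 0.12 SE, FDR = 1e-17).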

How the data were processed

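Total RNA of whole tomato fruits at 5 DPA was sequenced in 12 libraries, of which the 3 *VvSUC27*-OE and 3 *VvSUC12*-OE libraries were compared. Per the labels and the study's methods, the authors mapped clean reads to the tomato genome SL2.50 with TopHat2. The deposited count columns hold whole numbers that the authors had scaled to a common size, so they were treated as a score, called scaled counts, and not as raw reads. They no longer show each library's depth. Read totals per library are listed in the study's supplement and are not used here. The deposited FPKM values were computed by the authors. Their own fold changes and FDRs against WT, from EBSeq, were not used, nor were 6 other tables.

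Genes that reached 10 scaled counts in 3 or more of the 6 libraries were tested, two-sided, with limma 3.58.1 in R 4.3.3 (lmFit, eBayes with a trend) on log2(scaled count + 1), with Benjamini-Hochberg adjustment over all tested genes. Tables were made with Python 3.11.15, pandas 2.3.3 and numpy 2.4.6 and plots with matplotlib 3.10.9. In data simulated with 1 fixed spread, changes of 0.2-, 0.35-, 2.8- and 5-fold were planted in genes averaging at least 50 scaled counts in *VvSUC12*-OE. The test recovered 200 of 200 of these with 0 false calls among 18382 genes. The other genes were given no difference. The simulation therefore does not measure power for low genes or for changes near the limit, nor false calls in the real libraries. The genes named were, in each of 37 lists, at most 2 DEGs per direction with the largest log2FC, and 8 per direction over all genes, among DEGs averaging 50 scaled counts or more and with no overlap between lines. Of the genes in the study's text, *SlSUT1*, *SlSUT2*, *SlSUT4*, *SlPIN5* and *SlPIN6* were named whether DEGs or not. Other genes were chosen after their values were seen. Lists were made by words in the annotation. The comparison, lists and rule were chosen with earlier results of these data known. Symbols came from RefSeq (SLM_r2.1), matched for 10766 of 22827 genes. Alternatives covered the pseudocount, the filter, the scaling, FPKM, all 12 libraries, a replicate block, the trend, the thresholds and leaving out each library.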

Additional observations from a re-analysis of the deposited data

How the results depend on the processing

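The 1265 DEGs (492 higher and 773 lower in *VvSUC27*-OE fruits) became 806 (307 higher, 499 lower) when genes averaging under 50 scaled counts were left out, a setting that tests only 16318 genes, and 476 (198 higher, 278 lower) with limma's treat, which tests for an absolute log2FC above 1. Leaving out 1 library at a time gave 1204 to 1270 DEGs, 446 to 498 higher and 721 to 806 lower. Rescaling to the same total gave 433 higher and 885 lower, so that 67.1% of DEGs were lower, against 61.1% as deposited. FPKM gave 348 higher and 670 lower. The replicate numbers do not pair the samples, as the correlations of the deviations of same-numbered libraries were -0.001, -0.008 and 0.031. With the replicate block 1278 genes were DEGs, 498 higher and 780 lower, and 1258 of them were shared. Of 141 named DEGs, 18 lost the call under at least 1 alternative other than treat, and 38 under treat. None changed sign under any alternative, but their choice by an absolute log2FC above 1 left little room for that. The protease inhibitors higher numbered 10 at that higher filter, and 11 with treat. Under treat, 7 flavonoid, 3 cuticle and 10 photosynthesis genes were higher, and 6 cell cycle and 3 gibberellin genes were lower. FPKM left 8 higher cuticle genes. Lower genes at the higher filter and under treat numbered 13 and 14 for proteases, 11 and 5 for ethylene-responsive factors, 10 and 7 for pathogenesis-related proteins and 3 and 1 for seed storage and late embryogenesis proteins. Low genes limit what can be seen, since 3 scaled counts correspond to a median of 0.1001 FPKM in *VvSUC12*-OE libraries.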

Other observations

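Several lists had DEGs in both directions, beside 2.64% higher and 4.16% lower over all tested genes. Of 144 tested NAC, WRKY and bHLH factors, 11 were higher (7.64%) and 9 lower (6.25%). Of 176 tested cytochromes P450 and glycosyltransferases, 16 were higher (9.09%) and 14 lower (7.95%). Of 129 tested transporters of nitrate, peptides and amino acids, 9 were higher (6.98%) and 6 lower (4.65%). Of 121 tested calcium sensors, 3 were higher (2.48%) and 10 lower (8.26%).

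Over the order of the gene numbers, DEGs stood next to each other in 7 runs of at least 3 genes of one direction. Besides the inhibitor, antenna protein, xyloglucan, glycoalkaloid and osmotin runs, these were 3 EXORDIUM-like neighbours, gene11454 to gene11457, and 3 neighbours that begin with an arabinogalactan protein, gene29266 to gene29268, both lower.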
